A study of Mus musculus with 10 samples.

Results

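The genes described are the heat shock proteins and J-domain chaperones of the mouse, measured in dorsal root ganglia (DRG) 24 h after transection of the sciatic nerve. They were taken by symbol as the protein-coding genes whose names begin with Hspa, Hspb, Hspd, Hspe, Hsph or Hsp90, or with Dnaja, Dnajb or Dnajc, each followed by a number or, for Hsp90, by any ending. The rule gave 73 of the 54309 genes with a transcript in the files, of which 21669 are protein-coding. A further 15 genes with matching symbols had no protein-coding transcript and were left out. By class there were 8 small HSPs, 14 members of the HSP70 class (Hsph1 included), 3 HSP90 genes, 3 genes of HSP60 and its partner HSP10, and 4 DNAJA, 13 DNAJB and 28 DNAJC genes.

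Chaperones bind proteins that are unfolded, newly made or damaged and keep them from aggregating. Small HSPs hold such proteins without using ATP, HSP70 proteins bind and release them in cycles driven by ATP, J-domain (DNAJ) proteins deliver clients to HSP70 and start that cycle, and HSP90 completes the folding of kinases, receptors and other clients. The chaperonin of HSP60 and HSP10 folds proteins inside mitochondria, and the endoplasmic reticulum (ER) has its own HSP70, HSP90 and DNAJ proteins for secreted and membrane proteins. Many cytosolic chaperone genes respond to heat shock factors, and many ER chaperone genes respond to the unfolded protein response. In sensory neurons, which keep up axons far longer than their cell bodies, Hspb1 is known as a gene that follows axon injury.

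RNA-seq libraries were compared from female and male C57BL6/J mice, 6 to 8 weeks old, whose left sciatic nerve was cut across its whole width at mid-thigh (axotomy) or only exposed (sham). Sham animals were a separate cohort from the axotomized ones. Ipsilateral L4 and L5 DRG were taken at 24 h, and each library pools the tissue of 2 mice, which gives 2 sham libraries and 3 axotomy libraries for each sex. No transgene and no drug besides anesthesia is named for any group, and every group had anesthesia and skin and muscle surgery. The libraries were poly-A selected and held 55258476 to 90111671 estimated counts each. In such bulk tissue, fewer cells of a type and less RNA per cell cannot be told apart.

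Markers of the cells that a ganglion can hold were present in every library, none of the listed marker genes being at 0. The summed level of 8 sensory neuron markers was 4541 to 4690 scaled TPM in female sham, 4483 to 4677 in female axotomy, 4861 to 5059 in male sham and 3774 to 4797 in male axotomy. Scaled TPM, a level per transcript length within a library, is the deposited TPM multiplied by 1 factor per library, 0.928 to 1.113. The factors bring the median log2 ratio of axotomy over sham close to 0 over 10680 genes (0.016 in females and 0.013 in males). One library stood apart in skeletal muscle content. Female axotomy 2 held 153 scaled TPM of 10 skeletal muscle markers, against 3.37 to 36.9 in the other 9 libraries. Male axotomy 3 had the lowest sensory neuron sum of all libraries, 3774. It also had the highest sums of fibroblast and meningeal markers (1600) and of macrophage markers (205).

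Of the 73 chaperone genes, 67 had enough counts for a test. In females 16 passed at padj under 0.1 in edgeR's quasi-likelihood test, 11 higher and 5 lower after axotomy. That is 23.9% of the members tested, beside 20.1% of all 20836 genes tested (10.4% called higher and 9.74% lower). In males 36 passed, 21 higher and 15 lower. That is 53.7% of the members, beside 41.9% of all genes (21.8% called higher and 20.1% lower). The median log2 fold change (log2FC) of the members was 0.04 in females and 0.11 in males, beside 0.00 and 0.03 over all genes. There were 7 members that were called higher and 4 lower in both sexes, and 26 of the 67 were called in neither. The female count rested on single libraries. Leaving out female sham 1 gave 5 and leaving out female sham 2 gave 2, while leaving out female axotomy 1 gave 8 and leaving out female axotomy 2 gave 6. The male count became 21 when male sham 1 was left out and 16 when male sham 2 was. The share of all genes called in these fits is not given here. The falls therefore cannot be read as particular to the members.

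**Figure D1:**
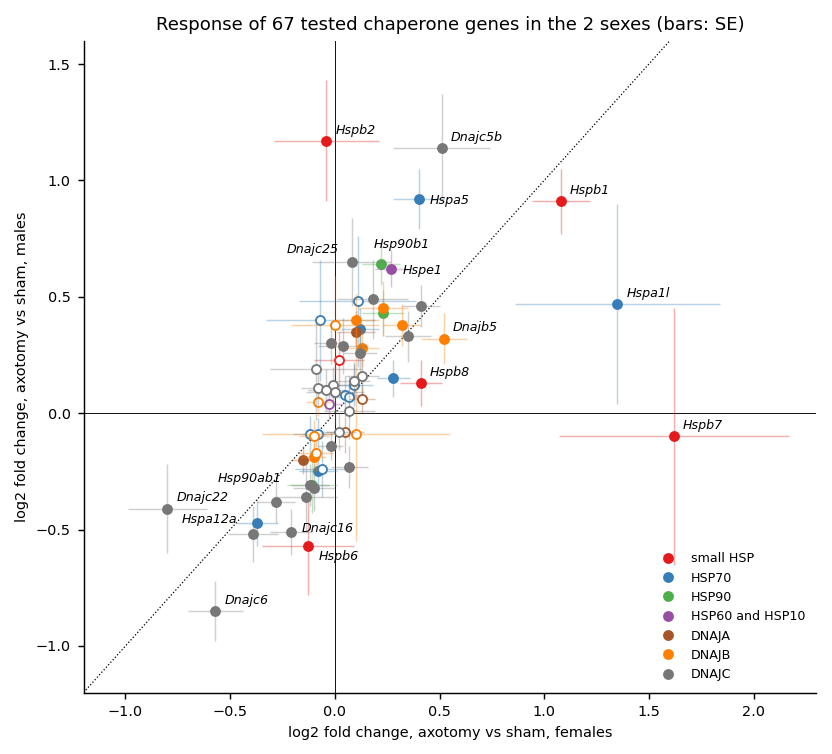
Log2 fold change after axotomy in females (horizontal axis) against males (vertical axis) for the 67 tested chaperone genes, coloured by class, with SE bars, filled where a gene was called in at least 1 sex, and with the dotted line of equal change. Hspb1 lies far from 0 in both sexes, whereas Hspb2 and Hspa5 lie above the line and Hspb7 far to the right with wide bars.

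The classes differed widely in level, and the small HSPs had the highest ratios of summed level after axotomy over sham in both sexes. Hspa8 was the most abundant member with a mean of 2389 scaled TPM over the 4 groups, followed by Hsp90ab1 at 1411, Hsp90aa1 at 1160, Hspb1 at 753, Dnaja1 at 381 and Hspb8 at 343. All members together made up 0.90% to 1.05% of the scaled TPM in a library. The summed level of the small HSPs was 825 and 874 scaled TPM in female sham and 1624, 1514 and 1347 in female axotomy. In males it was 861 and 925 in sham and 1590, 1397 and 1176 after axotomy. All 6 axotomy libraries lay above all 4 sham libraries. The ratio of means was 1.76 in females and 1.55 in males on this scale, and 1.62 and 1.36 in the deposited TPM. Hspb1 held 66.2% of the class sum.

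HSP70 sums overlapped between sham and axotomy in both sexes, at 3299 to 3440 scaled TPM in the 4 sham libraries and 3344 to 3879 in the 6 axotomy libraries. Hspa8 alone held 69.0% of that sum. HSP90 sums had ratios of 1.04 in females and 1.05 in males. The sum of HSP60 and HSP10 was 397 and 383 scaled TPM in male sham and 495, 476 and 522 in male axotomy, a ratio of 1.28, with 1.09 in females. DNAJA sums had ratios of 1.18 in males and 1.06 in females. The direction of the small class ratios depends on the scale, since in the deposited TPM the same HSP90 ratios were 0.96 and 0.92, the HSP70 ratios 0.96 and 0.95 in place of 1.04 and 1.09, those of HSP60 and HSP10 1.0 and 1.12, and those of DNAJA 0.98 and 1.03. With 2 sham libraries in each sex no test was made of the sums.

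**Figure D2:**
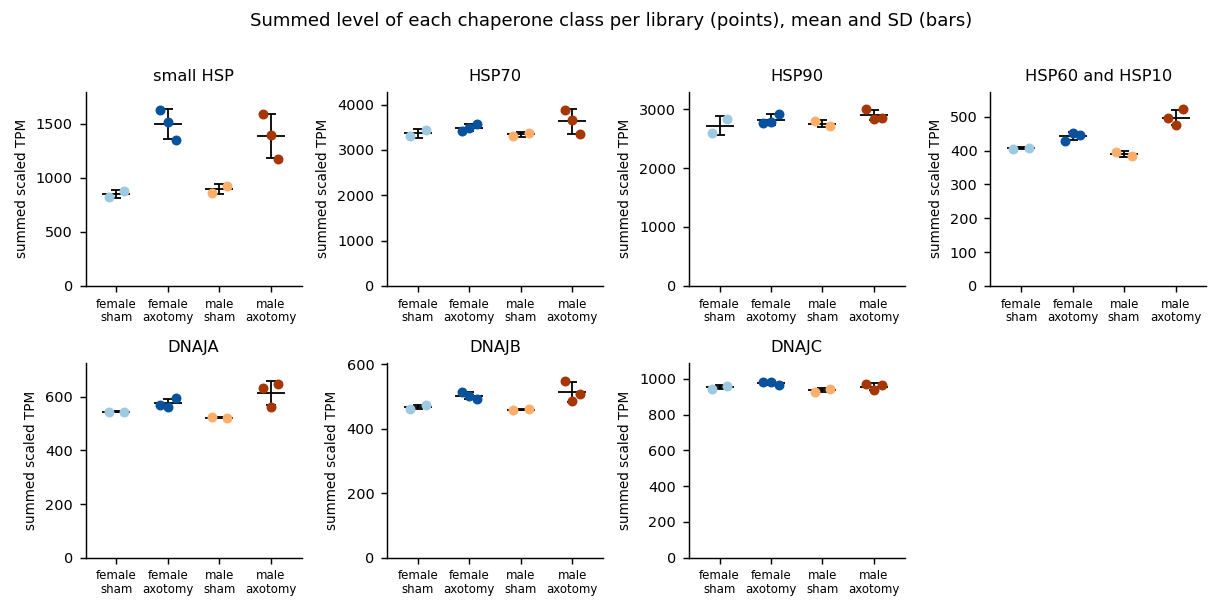
Summed scaled TPM of each chaperone class in each of the 10 libraries, with the mean (long bar) and SD of each group. The small HSP sum is 825 to 925 in the sham libraries and 1176 to 1624 after axotomy, the male sum of HSP60 and HSP10 is 383 to 397 in sham and 476 to 522 after axotomy, and the HSP70 sums of sham and axotomy overlap.

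Hspb1, the small HSP that binds unfolding proteins and actin, rose in both sexes. Its level was 471 and 512 scaled TPM in female sham and 1149, 1055 and 907 in female axotomy. In males it was 487 and 545 in sham and 1142, 957 and 810 after axotomy. The lowest axotomy library lay well above the highest sham library. The log2FC was 1.08 ± 0.14 (SE, padj = 0.00166) in females, 2.11-fold, and 0.91 ± 0.14 (padj = 0.00161) in males, 1.88-fold, and the call held in each alternative tried. The responses of the sexes differed by -0.17 ± 0.20 (male minus female, unadjusted p = 0.411 in the quasi-likelihood test across all genes).

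The promoter of Hspb1 is shown because it carries 2 short heat shock elements and its gene rose in both sexes. A heat shock element of 2 units was searched as GAANNTTC or TTCNNGAA, which read the same on both strands, and is in capitals in the RefSeq window from 250 bases before to 50 bases after the start, GRCm38.p6 chr5:135887669-135887968 on the plus strand. The first match begins 117 bases before the start.
Hspb1: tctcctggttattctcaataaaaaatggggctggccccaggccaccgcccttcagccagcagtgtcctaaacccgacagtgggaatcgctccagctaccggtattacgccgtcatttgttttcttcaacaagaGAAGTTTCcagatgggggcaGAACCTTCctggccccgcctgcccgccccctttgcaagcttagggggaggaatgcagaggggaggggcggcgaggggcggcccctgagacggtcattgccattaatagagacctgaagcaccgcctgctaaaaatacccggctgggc
Of 32851 RefSeq promoter windows of the same length, 4946 (15.1%) hold such a match. RefSeq windows were found for 58 of the 73 members, and 16 of these 58 genes have a window with the element. Counted by window, as for all genes, 18 of the 75 member windows (24%) hold it. A match describes letters and not binding.

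Hspb8, which works with Bag3 to send misfolded proteins to autophagy, was 295 and 306 scaled TPM in female sham and 417, 397 and 388 in female axotomy. The female groups did not overlap, and the log2FC was 0.41 ± 0.10 (padj = 0.0267). That call was lost without female sham 1 (padj = 0.162) or female sham 2 (padj = 0.152). In males the sham libraries were at 315 and 327 and the axotomy libraries at 379, 378 and 297, so that male axotomy 3 lay at the sham level. The male log2FC was 0.13 ± 0.10 (padj = 0.363), and without male axotomy 3 its padj was 0.0211.

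Hspb2 is a small HSP best known from muscle and a genomic neighbour of the alpha B-crystallin gene Cryab. It was 9.39 and 7.05 scaled TPM in male sham and 22.5, 14.1 and 19.2 in male axotomy, a log2FC of 1.17 ± 0.26 (padj = 0.00655). In females the values were 15.2 and 10.8 in sham and 15.1, 12.7 and 10.1 after axotomy, a log2FC of -0.04 ± 0.25 (padj = 0.937). Male sham libraries were thus the lowest of the 10, and the male axotomy libraries reached above the female ones in 2 of 3 cases. Cryab, not itself a member, had a log2FC of 0.84 (padj = 0.00529) in males and 0.08 (padj = 0.802) in females. Myelinating Schwann cell markers moved alongside, with 6 of 6 called higher in males and none in females, and a summed level of 4942 to 5507 scaled TPM in male sham and 6984 to 9620 in male axotomy. Markers of other cells moved as well. In males 4 of 6 satellite glia, 6 of 6 fibroblast and meningeal and 9 of 9 macrophage markers were called higher. In females 1, 0 and 1 of these were called higher and 2, 2 and 0 lower. The satellite glia sum was 4591 to 5120 scaled TPM in female sham and 4139 to 4299 in female axotomy. In males it was 4961 to 5028 in sham and 5451 to 6049 after axotomy. The part of any of these cell types in the Hspb2 result was not tested.

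Hspb7 and Hspb6, small HSPs of striated and smooth muscle, showed weaker calls. Hspb7 was 0.48 scaled TPM in both female sham libraries and 0.96, 2.74 and 0.71 in female axotomy, a log2FC of 1.62 ± 0.55 (padj = 0.0800). The high value belonged to female axotomy 2, the library with 153 scaled TPM of skeletal muscle markers, and the call was lost without it (padj = 0.208). It was also lost without female sham 1 (padj = 0.265), female sham 2 (padj = 0.326), male sham 1 (padj = 0.120) or male sham 2 (padj = 0.119), and without the filter on low counts (padj = 0.275). Hspb6 was 13.8 and 16.3 scaled TPM in male sham and 8.84, 12.8 and 8.72 in male axotomy, a log2FC of -0.57 ± 0.21 (padj = 0.0612). That call was lost without male sham 1 (padj = 0.119), male sham 2 (padj = 0.308), male axotomy 1 (padj = 0.166) or male axotomy 3 (padj = 0.159). Of 8 smooth muscle and pericyte markers, 2 were called higher and 1 lower in males, and 2 higher and 0 lower in females. Their sum was 112 to 122 scaled TPM in male sham and 129 to 165 in male axotomy. The part of these cells in the Hspb6 values was not tested. Hspb11, a subunit of intraflagellar transport in spite of its name, was 29.1 to 40.1 scaled TPM over all libraries and was called in neither sex (log2FC 0.02 and 0.23).

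**Figure D3:**
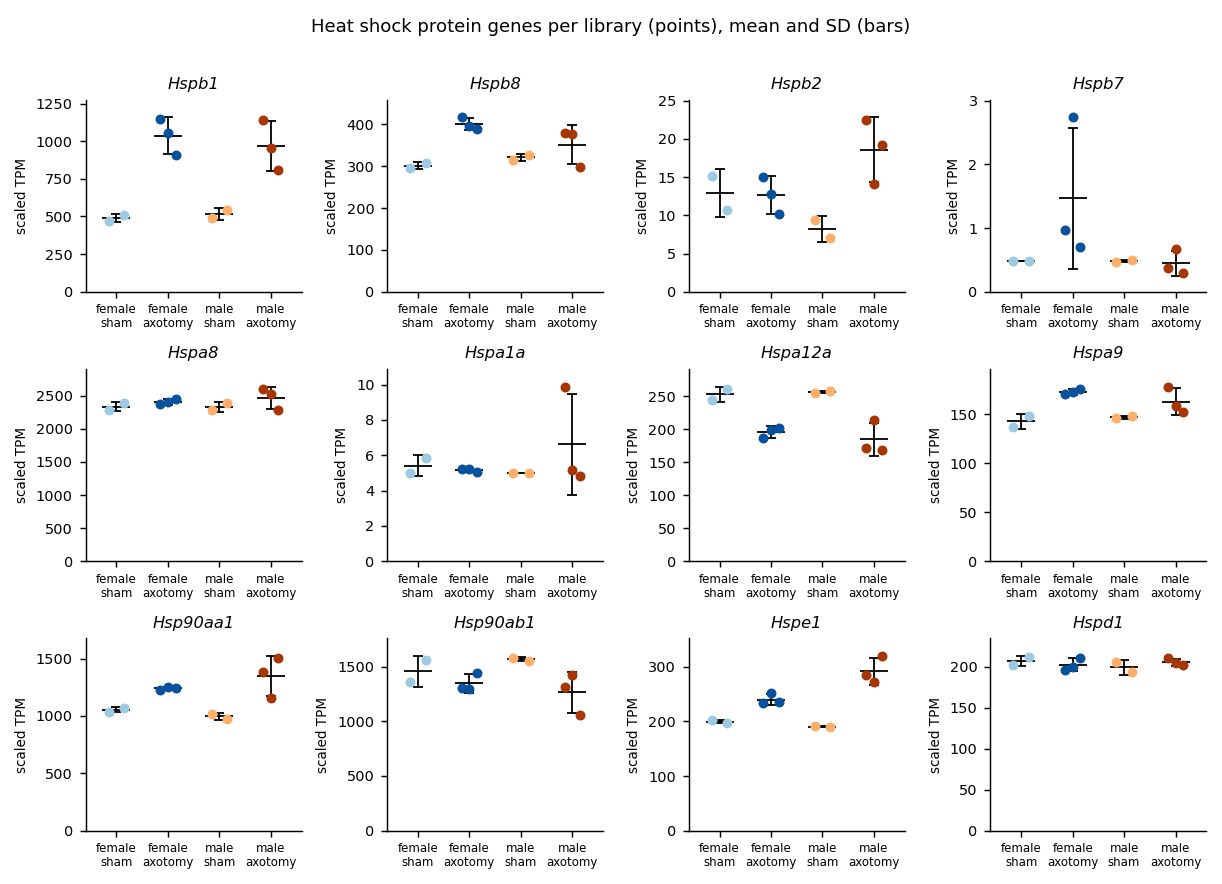
Scaled TPM of 12 heat shock protein genes in each library (points), with mean and SD, each panel on its own linear axis from 0. Hspb1 is 471 to 545 in sham and 810 to 1149 after axotomy, Hspa8 stays between 2282 and 2607, and single high points are seen for Hspb7 in female axotomy 2 and Hspa1a in male axotomy 1.

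The constitutive cytosolic HSP70, Hspa8, which also uncoats clathrin vesicles, hardly moved. Its level was 2290 and 2386 scaled TPM in female sham and 2371, 2409 and 2458 in female axotomy. It was 2282 and 2388 in male sham and 2607, 2526 and 2283 in male axotomy, and the groups overlapped in both sexes. The log2FC was 0.05 ± 0.08 in females and 0.08 ± 0.08 in males (padj = 0.765 and 0.480). The stress-inducible pair Hspa1a and Hspa1b, the classical targets of heat shock factors, was low. Hspa1a was 4.80 to 5.83 scaled TPM in 9 libraries and 9.89 in male axotomy 1, and Hspa1b was 6.22 to 8.59 in 9 libraries and 15.7 in male axotomy 1. Neither was called in either sex (padj from 0.222 to 0.894). In males Hspa1a was called without male axotomy 3 (padj = 0.0969) and Hspa1b without male axotomy 2 (padj = 0.0387). Male axotomy 1 also had the highest summed level of 8 immediate early genes, 331 scaled TPM against 142 to 287 elsewhere, and their part in this was not tested. Hspa1a and Hspa1b share 63.8% of the 31-base words of Hspa1a, so that the split of reads between them is uncertain.

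Hspa12a, a distant and mainly neuronal HSP70 relative, was the 1 member of its class called lower in both sexes. It was 245 and 261 scaled TPM in female sham and 186, 199 and 203 in female axotomy. It was 255 and 258 in male sham and 172, 214 and 169 in male axotomy. No axotomy library reached a sham library. The log2FC was -0.37 ± 0.10 (padj = 0.0400) in females and -0.47 ± 0.10 (padj = 0.00621) in males. The female call was lost without female sham 1 (padj = 0.124), female sham 2 (padj = 0.268), female axotomy 1 (padj = 0.133) or female axotomy 2 (padj = 0.101). Of 8 sensory neuron markers, 3 were called lower in females and 6 in males, and none higher. Their part in the fall of Hspa12a was not tested.

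Among the other cytosolic HSP70 genes, the nucleotide exchange factors of the HSP110 kind, Hspa4, Hspa4l and Hsph1, had log2FC of -0.12 to 0.07 and were called in neither sex. Hspa14, a partner of the ribosome, had 0.09 and 0.12, and Hspa12b, the relative known from endothelium, -0.06 and -0.24, without a call, though it passed in males without the length offset (padj = 0.055). Hspa2, known from testis and brain, was 13.4 and 14.8 scaled TPM in male sham and 11.9, 12.8 and 10.9 in male axotomy, a log2FC of -0.25 ± 0.09 (padj = 0.0542). That call was lost without male sham 2 (padj = 0.323), male axotomy 1 (padj = 0.101) or male axotomy 3 (padj = 0.123). Hspa1l, a testis gene, stood at 0.04 to 0.32 scaled TPM over all libraries. Its female log2FC of 1.35 ± 0.49 (padj = 0.0952) compares 0.12 and 0.04 with 0.15, 0.25 and 0.22. It was lost without female sham 2 (padj = 0.479), male sham 1 (padj = 0.136), male sham 2 (padj = 0.136), any of the 3 female axotomy libraries (padj = 0.111, 0.225 and 0.151) or male axotomy 3 (padj = 0.103).

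The cytosolic HSP90 genes moved apart in males, with a weak call for Hsp90ab1. Hsp90aa1, the inducible form, was 1018 and 977 scaled TPM in male sham and 1379, 1160 and 1506 in male axotomy, a log2FC of 0.43 ± 0.10 (padj = 0.00934). In females it was 1038 and 1072 in sham and 1227, 1250 and 1242 after axotomy, without overlap, but its log2FC of 0.23 ± 0.10 did not pass over all genes (padj = 0.162). Without male axotomy 2 (padj = 0.0280) or male axotomy 3 (padj = 0.0677) it did pass, as in DESeq2 (padj = 0.0924) and with only the female libraries fitted (padj = 0.019). Hsp90ab1, the constitutive form, was 1582 and 1558 in male sham and 1320, 1425 and 1055 in male axotomy, a log2FC of -0.31 ± 0.12 (padj = 0.0726). That call was lost without male sham 1 (padj = 0.247), male sham 2 (padj = 0.208), female axotomy 2 (padj = 0.10), male axotomy 1 (padj = 0.108) or male axotomy 3 (padj = 0.128). It was also lost without the length offset (padj = 0.167) and with only the male libraries fitted (padj = 0.152). In females Hsp90ab1 was 1359 and 1559 in sham and 1304, 1294 and 1446 after axotomy, overlapping, with a log2FC of -0.11 ± 0.12 (padj = 0.581).

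In mitochondria, HSP10 rose and its partner HSP60 did not pass the test. Hspe1 (HSP10), the lid of the chaperonin, was 202 and 198 scaled TPM in female sham and 233, 252 and 235 in female axotomy. It was 192 and 190 in male sham and 285, 272 and 320 in male axotomy, so that axotomy lay above sham in both sexes and the male libraries above the female ones after axotomy. The log2FC was 0.27 ± 0.08 (padj = 0.0507) in females and 0.62 ± 0.08 (padj = 0.00084) in males. The female call was lost without female sham 1 (padj = 0.182), female sham 2 (padj = 0.289), female axotomy 1 (padj = 0.102) or female axotomy 2 (padj = 0.151). Hspd1 (HSP60), the barrel, was 193 to 211 scaled TPM in all 10 libraries, with log2FC of -0.03 ± 0.07 and 0.04 ± 0.07. Reads of these genes can also fit pseudogenes, since 24.8% of the 31-base words of Hspe1 and 50.1% of those of Hspd1 occur in other genes. The pseudogene that shares most with Hspd1 was given at most 0.022% of the Hspd1 counts in any library.

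Hspd1 and Hspe1 lie head to head, and their RefSeq windows overlap on chromosome 1. The window of Hspe1, GRCm38.p6 chr1:55087898-55088197 on the plus strand, is shown because both genes share the stretch while only Hspe1 was called. Capitals mark the heat shock elements, which here form a run of alternating units that starts 89 bases before the start of Hspe1.
Hspe1: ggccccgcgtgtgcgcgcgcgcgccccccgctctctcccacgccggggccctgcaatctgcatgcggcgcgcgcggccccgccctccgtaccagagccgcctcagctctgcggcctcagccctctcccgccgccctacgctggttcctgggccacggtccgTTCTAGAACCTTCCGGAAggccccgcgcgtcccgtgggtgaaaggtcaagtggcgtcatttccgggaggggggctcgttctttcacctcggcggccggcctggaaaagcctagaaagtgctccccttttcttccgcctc
A heat shock element of 3 units (GAANNTTCNNGAA or TTCNNGAANNTTC, both strands) is held by 198 of the 32851 windows (0.603%). Among the members it is found for Dnajb6, Hspd1, Hspe1 and Hsph1. Of these, Dnajb6 and Hspe1 were called in both sexes and Hspd1 and Hsph1 in neither.

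Hspa9 (mortalin), the mitochondrial HSP70 that pulls proteins in through the import channel, was 137 and 148 scaled TPM in female sham and 171, 173 and 176 in female axotomy. The log2FC was 0.28 ± 0.08 (padj = 0.0473), lost without female sham 1 (padj = 0.273), female sham 2 (padj = 0.151) or female axotomy 2 (padj = 0.118). In males it was 146 and 148 in sham and 179, 159 and 153 after axotomy, also without overlap, with a log2FC of 0.15 ± 0.08 (padj = 0.182). Without male axotomy 3 the male padj was 0.0721. Of 8 members of mitochondria, a grouping by location that was made after the values were seen, 2 were called higher in females and 3 higher and 1 lower in males. Those are 25% and 50% called, near the 20.1% and 41.9% of all genes.

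The ER has its own HSP70, HSP90 and DNAJ genes. In a group of 8 of them, put together after the values were seen, 6 were called higher in males and none lower (75% called higher, beside 21.8% of all genes), with a median log2FC of 0.33. In females 1 was called higher (12.5%, beside 10.4% of all genes) and none lower, with a median of 0.11. The group is not all of the ER members. Dnajb12, Dnajb14, Dnajc16 and Dnajc18, J-domain proteins of the ER membrane, are among those outside it. Of these, Dnajc18 was called lower in both sexes and Dnajc16 lower in males. The absence of lower calls therefore follows from how the 8 were chosen, and the share called higher depends on that choice too. Hspa5 (BiP), the HSP70 of the ER and a sensor of its folding load, was 256 and 251 scaled TPM in female sham and 328, 330 and 345 in female axotomy. It was 227 and 221 in male sham and 517, 388 and 369 in male axotomy. All axotomy libraries lay above all sham libraries, and each male axotomy library above each female one. The log2FC was 0.40 ± 0.12 (padj = 0.0572) in females, 1.32-fold, and 0.92 ± 0.13 (padj = 0.00098) in males, 1.90-fold. The female call was lost without female sham 1 (padj = 0.198), female sham 2 (padj = 0.277) or any 1 of the 3 female axotomy libraries (padj = 0.118, 0.122 and 0.106).

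Hsp90b1 (GRP94), the HSP90 of the ER, was 189 and 171 scaled TPM in male sham and 297, 252 and 296 in male axotomy, a log2FC of 0.64 ± 0.09 (padj = 0.00104). In females it was 204 and 196 in sham and 226, 234 and 236 after axotomy, again without overlap, with a log2FC of 0.22 ± 0.09 (padj = 0.131). The female change passed without male axotomy 2 (padj = 0.0365) or male axotomy 3 (padj = 0.0940), and also in DESeq2 (padj = 0.0706), with only the female libraries fitted (padj = 0.0294) and without the length offset (padj = 0.0669). Hspa13, a small HSP70 relative of microsomes, was 18.1 and 17.0 in male sham and 23.9, 19.8 and 23.8 in male axotomy, a log2FC of 0.36 ± 0.09 (padj = 0.0125), lost without male sham 2 (padj = 0.114).

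The DNAJ partners of BiP are named here after their values were seen. Dnajb9 (ERdj4), which holds back the stress sensor Ire1, was 39.6 and 40.1 scaled TPM in male sham and 62.2, 46.0 and 49.6 in male axotomy, a log2FC of 0.40 ± 0.11 (padj = 0.0196). Dnajb11 (ERdj3), a BiP co-chaperone that can be secreted, was 30.7 and 29.2 in male sham and 39.2, 35.3 and 34.2 in male axotomy, a log2FC of 0.28 ± 0.08 (padj = 0.0188). Dnajc3 (p58IPK), a BiP co-chaperone known as an inhibitor of the kinase Perk, was 32.2 and 30.5 in male sham and 40.2, 34.3 and 41.3 in male axotomy, a log2FC of 0.30 ± 0.09 (padj = 0.0206). In females the 3 genes had log2FC of 0.10, 0.13 and -0.02, none called. The male calls were lost without male sham 2 (padj = 0.10 for Dnajb9, 0.157 for Dnajb11 and 0.163 for Dnajc3), and that of Dnajb9 also without male sham 1 (padj = 0.115) and without the length offset (padj = 0.111). Dnajc10 (ERdj5), a disulfide reductase, and Dnajc1 were not called, with male log2FC of 0.11 and 0.12, though Dnajc1 passed in males without the length offset (padj = 0.0137).

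**Figure D4:**
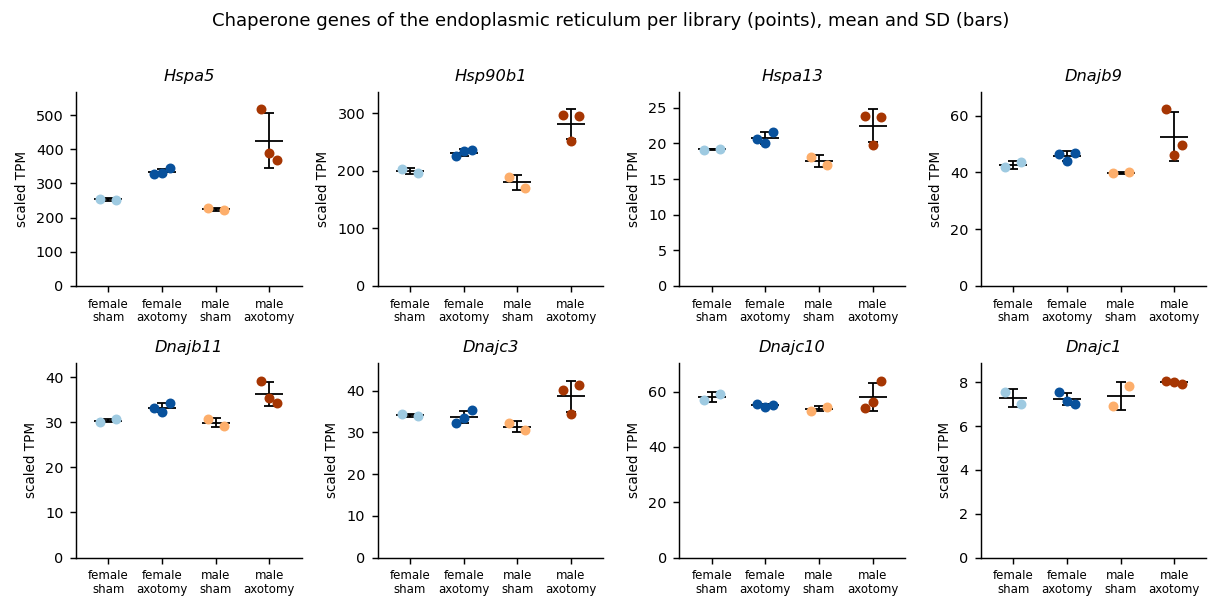
Scaled TPM of the 8 ER members in each library (points), with mean and SD, each panel on its own linear axis from 0. For Hspa5 the sham libraries are at 221 to 256, female axotomy at 328 to 345 and male axotomy at 369 to 517, and the male axotomy points of Hsp90b1, Dnajb11 and Dnajc3 also lie above male sham.

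Other cells moved in the same comparison. Of 6 fibroblast and meningeal markers, 6 were called higher in males and none in females, where 2 were lower, and 3 were higher in males than in females after axotomy. Their summed level was 504 to 517 scaled TPM in male sham and 1235, 744 and 1600 in male axotomy, beside 584 to 671 in female axotomy. Macrophage markers, 9 of 9 called higher in males and 1 in females, summed to 56.2 to 58.5 in male sham and 119 to 205 in male axotomy. The part of these cells in the ER chaperone values was not tested.

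Promoters are shown for the 4 ER members that hold an ER stress response element, since these genes rose in males. The element was searched as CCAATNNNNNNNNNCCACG and in a shorter form, II, as ATTGGNCCACG, both on both strands, with matches in capitals. The windows are GRCm38.p6 chr2:34771840-34772139 (plus strand) for Hspa5, chr10:86705395-86705694 (minus strand) for Hsp90b1, chr14:118937682-118937981 (plus strand) for Dnajc3 and chr16:22857595-22857894 (plus strand) for Dnajb11.
Hspa5: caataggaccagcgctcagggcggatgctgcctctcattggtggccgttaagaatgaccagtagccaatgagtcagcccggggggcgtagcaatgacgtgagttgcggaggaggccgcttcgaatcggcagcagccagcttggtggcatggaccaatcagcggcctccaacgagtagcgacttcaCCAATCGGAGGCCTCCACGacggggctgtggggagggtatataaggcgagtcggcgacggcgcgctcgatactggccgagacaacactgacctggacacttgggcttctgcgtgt
Hsp90b1: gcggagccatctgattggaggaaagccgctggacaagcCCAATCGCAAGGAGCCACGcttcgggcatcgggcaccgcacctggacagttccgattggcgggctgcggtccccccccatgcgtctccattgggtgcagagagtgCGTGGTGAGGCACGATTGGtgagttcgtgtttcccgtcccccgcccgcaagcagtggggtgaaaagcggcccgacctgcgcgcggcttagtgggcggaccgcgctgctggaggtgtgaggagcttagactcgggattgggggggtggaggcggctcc
Dnajc3: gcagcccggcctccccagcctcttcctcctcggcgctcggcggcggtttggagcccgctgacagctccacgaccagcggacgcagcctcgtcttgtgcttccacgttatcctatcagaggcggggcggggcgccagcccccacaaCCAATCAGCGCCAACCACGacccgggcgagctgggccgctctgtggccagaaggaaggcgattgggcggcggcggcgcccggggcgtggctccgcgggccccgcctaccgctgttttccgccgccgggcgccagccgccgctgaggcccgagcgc
Dnajb11: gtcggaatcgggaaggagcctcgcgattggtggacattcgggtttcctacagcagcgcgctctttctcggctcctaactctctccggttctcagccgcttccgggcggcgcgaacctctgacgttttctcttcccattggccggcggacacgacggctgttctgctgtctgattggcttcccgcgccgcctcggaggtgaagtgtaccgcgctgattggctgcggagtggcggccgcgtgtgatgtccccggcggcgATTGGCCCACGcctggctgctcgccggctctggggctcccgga
The first form stands once in the windows of Hspa5, 65 bases before the start, and of Dnajc3, 105 bases before it, and 2 times in that of Hsp90b1. Form II stands in the Dnajb11 window, 7 bases past its start. Over all 32851 windows the first form is in 39 (0.119%) and form II in 12 (0.0365%). RefSeq windows were found for 7 of the 8 ER members, and those of Dnajb9, Dnajc1 and Dnajc10 hold neither form.

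Among cytosolic J-domain proteins, 4 were called higher in both sexes. Dnajc7, which bridges HSP70 and HSP90 through its TPR repeats, was 167 and 163 scaled TPM in female sham and 238, 217 and 202 in female axotomy. It was 152 and 154 in male sham and 232, 200 and 202 in male axotomy, with no overlap in either sex. The log2FC was 0.41 ± 0.09 (padj = 0.0166) in females and 0.46 ± 0.09 (padj = 0.00398) in males, the female call being lost without female sham 2 (padj = 0.151). Its protein-coding transcripts made up 66.4% ± 0.96 of its TPM in female sham (SD, n = 2), 73.3% ± 3.6 in female axotomy (n = 3), 65.8% ± 2.3 in male sham (n = 2) and 71.6% ± 3.0 in male axotomy (n = 3).

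Dnajb6, a suppressor of polyglutamine aggregation, was 133 and 133 scaled TPM in female sham and 172, 170 and 154 in female axotomy, and 126 and 128 in male sham against 176, 147 and 175 in male axotomy. The log2FC was 0.32 ± 0.09 (padj = 0.0420) and 0.38 ± 0.09 (padj = 0.00884). The female call was lost without female sham 1 (padj = 0.178), female sham 2 (padj = 0.236), female axotomy 1 (padj = 0.130) or female axotomy 2 (padj = 0.121). Dnajb5 was 10.3 and 12.6 in female sham and 17.5, 15.5 and 16.1 in female axotomy, and 12.3 and 12.1 in male sham against 17, 14.8 and 14.1 in male axotomy. All its axotomy libraries lay above all sham libraries, with log2FC of 0.52 ± 0.11 (padj = 0.0141) and 0.32 ± 0.11 (padj = 0.0424). The female call was lost without female sham 1 (padj = 0.139) and the male call without male sham 1 (padj = 0.160), male sham 2 (padj = 0.187) or male axotomy 1 (padj = 0.129).

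Dnajc2, the J-domain partner of Hspa14 at the ribosome, had log2FC of 0.35 ± 0.11 (padj = 0.0578) in females and 0.33 ± 0.11 (padj = 0.0369) in males. Its level was 24.2 to 27.8 scaled TPM in the 4 sham libraries and 27 to 36.6 in the 6 axotomy libraries. The female call was lost without female sham 1 (padj = 0.158), female sham 2 (padj = 0.331), female axotomy 1 (padj = 0.177) or female axotomy 2 (padj = 0.142). The male call was lost without male sham 1 (padj = 0.197), male sham 2 (padj = 0.127) or male axotomy 1 (padj = 0.109).

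In males alone the test called further J-domain genes higher, and with all libraries no test of the difference between the sexes passed for them. Without male axotomy 2 the difference of the responses passed for Dnaja1 (log2FC 0.34, padj = 0.0604) and Dnajc19 (0.48, padj = 0.0981). Dnajb1, the main J-domain partner of inducible HSP70, was 28.5 and 29.7 scaled TPM in male sham and 47.7, 37.2 and 34.6 in male axotomy, a log2FC of 0.45 ± 0.12 (padj = 0.0135), lost without male sham 1 (padj = 0.105). In females it was 32.0 and 32.1 in sham and 39.5, 36.3 and 36.7 after axotomy, without overlap, with a log2FC of 0.23 ± 0.12 (padj = 0.221), and it passed without male axotomy 1 (padj = 0.0508) and with only the female libraries fitted (padj = 0.0327). Dnaja1, an abundant partner of Hspa8, was 344 and 335 in male sham and 450, 383 and 470 in male axotomy, a log2FC of 0.35 ± 0.09 (padj = 0.0136), lost without male sham 2 (padj = 0.107). Its female log2FC was 0.10 ± 0.09 (padj = 0.520). Dnaja2, of the same kind, was called in neither sex (0.13 and 0.06).

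Dnajc5b, a relative of the vesicle chaperone Dnajc5, was 1.13 and 1.55 scaled TPM in male sham and 3.27, 2.75 and 2.89 in male axotomy, a log2FC of 1.14 ± 0.23 (padj = 0.00489). In females it was 2.01 and 1.77 in sham and 3.23, 2.55 and 2.32 after axotomy, a log2FC of 0.51 ± 0.23 (padj = 0.163). Dnajc25 was 1.55 and 2.02 in male sham and 3.17, 2.26 and 3.02 in male axotomy, a log2FC of 0.65 ± 0.19 (padj = 0.0255), lost without male sham 1 (padj = 0.214). Dnajc19, a part of the mitochondrial import motor, was 43.3 and 44.8 in male sham and 62.4, 45.9 and 77.4 in male axotomy, a log2FC of 0.49 ± 0.17 (padj = 0.0501). The Dnajc19 call was lost without male sham 1 (padj = 0.210), male sham 2 (padj = 0.174), male axotomy 1 (padj = 0.103) or male axotomy 3 (padj = 0.131).

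**Figure D5:**
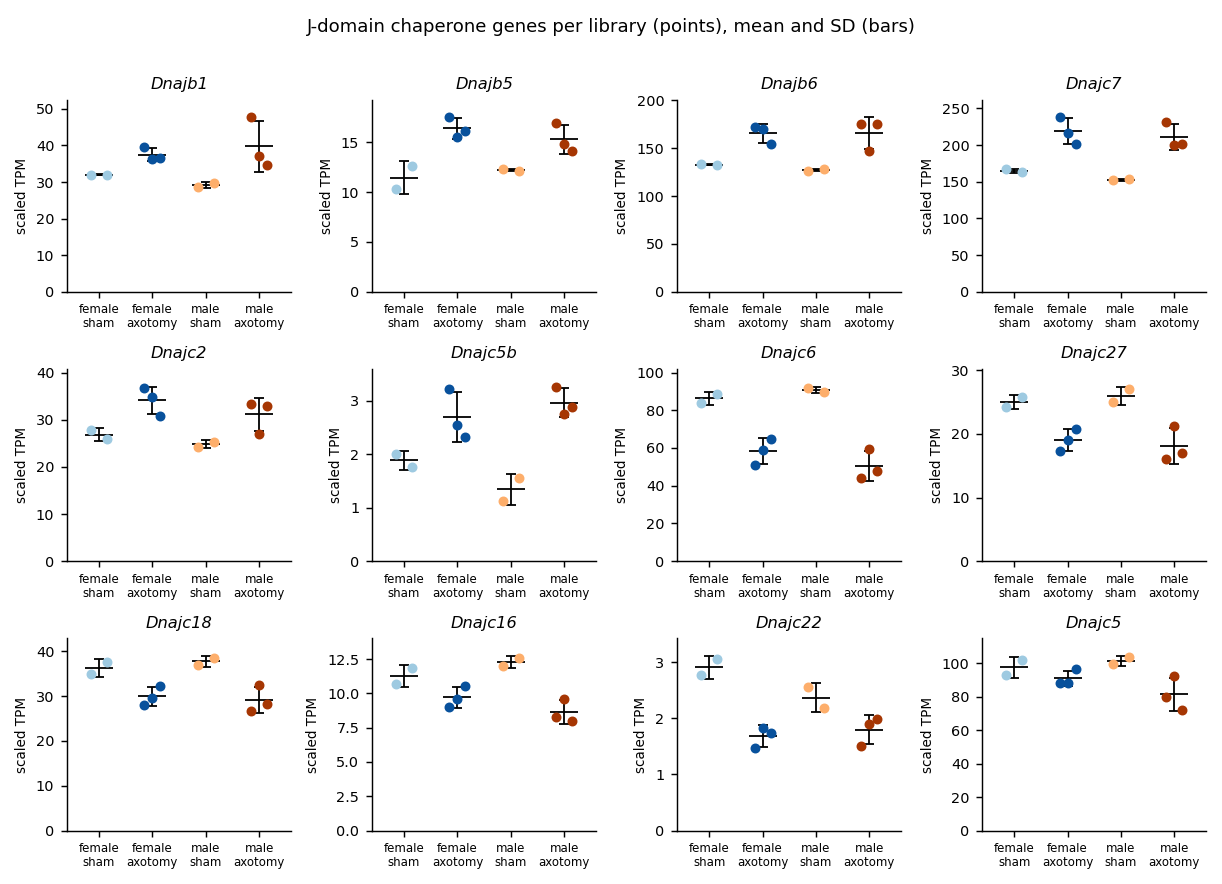
Scaled TPM of 12 J-domain chaperone genes in each library (points), with mean and SD, each panel on its own linear axis from 0. Dnajc7 is 152 to 167 in sham and 200 to 238 after axotomy, and Dnajc6 is 83.9 to 92.0 in sham and 44.0 to 64.9 after axotomy.

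Dnajc6 (auxilin), which with Hspa8 strips clathrin from vesicles in neurons, was 83.9 and 88.8 scaled TPM in female sham and 51.0, 59.0 and 64.9 in female axotomy. It was 92.0 and 89.6 in male sham and 44.0, 59.3 and 47.8 in male axotomy. The log2FC was -0.57 ± 0.13 (padj = 0.0167) in females, lost without female sham 2 (padj = 0.147), and -0.85 ± 0.13 (padj = 0.00129) in males, where the level fell to 0.55 of sham. Dnajc5 (cysteine string protein alpha), the chaperone of synaptic vesicles, was 99.4 and 104 in male sham and 79.6, 92.1 and 72.3 in male axotomy, a log2FC of -0.32 ± 0.10 (padj = 0.0304). The Dnajc5 call was lost without male sham 1 (padj = 0.109) or male sham 2 (padj = 0.170), and in females its log2FC was -0.10 ± 0.10 (padj = 0.546). The 6 sensory neuron markers called lower in males stand beside these values, and their part was not tested.

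Dnajc27, a small GTPase with a J domain, was 24.2 and 25.8 scaled TPM in female sham and 17.3, 19.0 and 20.8 in female axotomy, and 25 and 27 in male sham against 16, 21.3 and 17 in male axotomy. Its log2FC was -0.39 ± 0.12 (padj = 0.0505) and -0.52 ± 0.12 (padj = 0.00712), and Dnajc18, of the ER membrane, had -0.28 ± 0.09 (padj = 0.0760) and -0.38 ± 0.09 (padj = 0.0108). Both genes lay lower in all 6 axotomy libraries than in all 4 sham libraries. Female calls of both were lost without female sham 1 (padj = 0.146 for Dnajc27 and 0.163 for Dnajc18), female sham 2 (padj = 0.293 and 0.400), female axotomy 1 (padj = 0.162 and 0.221) or female axotomy 2 (padj = 0.122 and 0.175). That of Dnajc18 was also lost without male sham 1 (padj = 0.118) or male sham 2 (padj = 0.139) and without the length offset (padj = 0.106).

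Dnajc16 was called lower in males (log2FC -0.51 ± 0.10, padj = 0.00368) and had -0.21 ± 0.10 (padj = 0.178) in females, where it passed without male axotomy 2 (padj = 0.0902). Dnajc22 was called lower in females (-0.80 ± 0.19, padj = 0.0248), where 2.76 and 3.05 scaled TPM in sham stood against 1.46, 1.83 and 1.74 after axotomy, and the call was lost without female sham 2 (padj = 0.190). In males it had -0.41 ± 0.19 (padj = 0.131) and passed without the length offset (padj = 0.0242). Dnajc30, a mitochondrial J-domain protein, had -0.31 ± 0.09 (padj = 0.0272) in males, lost without male sham 1 (padj = 0.115) or male sham 2 (padj = 0.143). Dnajc28 had -0.36 ± 0.15 (padj = 0.0922) in males, a call lost in 9 of the alternatives, among them without any 1 of the 4 sham libraries (padj = 0.119, 0.119, 0.327 and 0.188), without female axotomy 3 (padj = 0.111) and without male axotomy 1 or 2 (padj = 0.176 and 0.195).

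The other 24 tested J-domain genes, the ER partners named above among them, had log2FC of -0.15 to 0.13 in females, where none was called, and of -0.23 to 0.40 in males, where 5 were called higher and 4 lower. Their mean levels ran from 0.235 to 87.0 scaled TPM. Of all genes, 21.8% were called higher and 20.1% lower in males. Each of the male calls among the 24 was lost without male sham 2 (padj = 0.10 to 0.405). Dnaja4, named after its values were seen, passed in females in DESeq2 (padj = 0.0497). Not tested for lack of counts were 6 members. Hspb3, a muscle gene, had 35 counts and Dnajb7, a testis gene, 54 counts over all 10 libraries together. Hspb9 had 4 counts and Dnajc5g had 2. Dnajb8 had 0 counts, where 3 counts in a library, the most that a count of 0 allows, correspond to 0.0333 to 0.0543 CPM for counting error alone.

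Between the sexes no member was called. For the difference of the responses the quasi-likelihood test called 0 of 67 members, beside 0.0192% of all genes, while 7 members had an unadjusted p under 0.05 and DESeq2 called 2, Hsp90b1 (log2FC 0.41, padj = 0.0572) and Hspb2 (1.20, padj = 0.0637). In sham it called 0 members, beside 0.0432% of all genes, with 1 at an unadjusted p under 0.05 and 0 by DESeq2. After axotomy it called 0, beside 1.52% of all genes, with 9 at an unadjusted p under 0.05 and 5 by DESeq2. Those 5, named for this count, were Hspe1 (males over females, log2FC 0.27, padj = 0.0199), Hsp90b1 (0.27, padj = 0.0228), Hspa5 (0.34, padj = 0.0571), Dnajc13 (-0.31, padj = 0.0189) and Hspb7 (-1.72, padj = 0.0095). The shares of all genes above are those of the quasi-likelihood test at padj under 0.1. None is given for unadjusted p or for DESeq2, so those counts have no background here. After axotomy Hspe1 came closest in the quasi-likelihood test (0.28, padj = 0.108).

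The quasi-likelihood counts for the difference of the responses and after axotomy rested on 1 library. Without male axotomy 2, in which Hsp90b1 (252), Hspe1 (272) and Dnaja1 (383 scaled TPM) were the lowest of the male axotomy libraries, 11 members were called for the difference of the responses, 9 of them with the larger log2FC in males, and 18 after axotomy, 11 higher in males and 7 lower. In that fit 10.5% of all genes were called for the difference of the responses, beside 16.4% of the members, and 17.3% after axotomy, beside 26.9% of the members. Among the 11 were Hsp90b1 (log2FC 0.50, padj = 0.0241), Hspa5 (0.58, padj = 0.0791), Hspe1 (0.40, padj = 0.0536), Dnajc3 (0.40, padj = 0.0397) and Hspb2 (1.38, padj = 0.0463). Male axotomy 2 also differed in cell markers and had the most counts of all libraries (90111671). Of the male axotomy libraries it had the lowest sums of fibroblast and meningeal (744), macrophage (119), Schwann cell (6984) and satellite glia (5451) markers. Its sum of sensory neuron markers was the highest of them (4797). The part of these differences in the counts was not tested.

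The partners of these chaperones were read from lists written beside the members. Of 7 heat shock factors and their binding proteins 6 were tested. Hsf1, the main factor, was at 24.5, 24.0, 24.8 and 22.9 scaled TPM (means of female sham, female axotomy, male sham and male axotomy) and was not called, whereas Hsf2 was called higher in females (log2FC 0.20, padj = 0.0924). In males Hsbp1, which binds Hsf1, was called higher (0.27, padj = 0.0272) and Hsf4 lower (-0.53, padj = 0.0017). Of 15 subunits of the cytosolic chaperonin TRiC/CCT and its partner prefoldin, 6 were called higher in females and 11 higher and 1 lower in males. Called higher were 40% in females and 73.3% in males, beside 10.4% and 21.8% of all genes. The prefoldin subunit Pfdn4 had log2FC of 0.46 (padj = 0.0399) and 0.72 (padj = 0.00277), and the testis form Cct6b -0.90 in males (padj = 0.0344).

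Of 16 ER folding enzymes and other ER chaperones, 7 were called higher in females (43.8%, beside 10.4% of all genes) and 12 in males (75%, beside 21.8%), and none lower. The list, written with earlier results known, is not all of the ER genes. Hyou1 (log2FC -0.01 and -0.02) and Sil1 (-0.07 and -0.10), placed among the HSP70 partners, were called in neither sex. Sec63, also placed there, was called higher in both (0.26 and 0.30). Sdf2l1, a partner of BiP, had log2FC of 0.76 (padj = 0.00998) and 0.99 (padj = 0.00133). Serpinh1, the collagen chaperone, had 0.26 (padj = 0.348) and 1.39 (padj = 0.00092) and was the 1 gene of the list called higher in males than in females after axotomy (0.90, padj = 0.0498). Of 22 HSP90 co-chaperones and organelle HSP90 genes 3 were higher in females and 5 higher and 2 lower in males, and at 13.6% and 31.8% called they lay below the 20.1% and 41.9% of all genes. Sugt1 had log2FC of 0.36 (padj = 0.0469) and 0.53 (padj = 0.00428) and Ptges3 (p23) 0.29 (padj = 0.0330) and 0.31 (padj = 0.0118). Of 18 HSP70 exchange factors and other partners 3 were higher and 1 lower in females and 4 higher and 4 lower in males, which is 22.2% and 44.4% called, near the 20.1% and 41.9% of all genes. Bag2 and Bag4, exchange factors, were lower in males by -0.63 (padj = 0.00157) and -0.42 (padj = 0.00314), and Bag4 also in females by -0.26 (padj = 0.050).

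Reads of abundant members can also fit pseudogenes, which bears on their levels. Of the 31-base words in Gencode M21 transcripts, 52.3% of those of Hspb1, 51.4% of those of Hsp90aa1 and 43.5% of those of Hspa8 occur in another gene. The closest pseudogene was given few counts in these files, at most 0.0186% of the Hspb1 counts, 0.0165% of the Hsp90aa1 counts and 0.00402% of the Hspa8 counts in any library.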

How the data were processed

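RNA-seq of 10 DRG libraries was analysed, grouped by sex and operation from the sample labels. The authors trimmed read pairs with Trimmomatic 0.39 and quantified transcripts with Salmon 1.3.0, corrected for sequence and GC bias. The deposited values are estimated counts, TPM and effective lengths per transcript, as the authors' Salmon run wrote them. The annotation that the authors name is Gencode M27. No strand setting for Salmon was given in the sources used here. Counts were summed per gene, rounded, filtered by filterByExpr (minimum count 10, 20836 genes kept) and fitted in edgeR 4.0.16 (R 4.3.3) with TMM, an effective length offset and a robust quasi-likelihood test of 4 group means over all 10 libraries. P-values were adjusted by Benjamini-Hochberg over all genes tested and called under 0.1. The fit was tested on simulated data. Levels are deposited TPM times 1 TMM-derived factor per library. This scale was chosen after seeing the data, because the deposited TPM of most genes sat lower after axotomy (median log2 ratio -0.102 in females and -0.178 in males over 10680 genes, and 0.016 and 0.013 once scaled). Alternatives were RLE normalization, DESeq2 1.42.0, no filter, no offset, a replicate block, only the libraries compared, padj under 0.05 and each library left out. The values of 1 untested member are not reported here. The members and lists were chosen with earlier results of these data known. Named genes were all HSP members, the 8 J-domain genes with the largest and the 8 with the smallest mean log2FC among those called at 1 TPM or more, the 5 most abundant and, of other lists, the heat shock factors and up to 2 called genes per list with the largest mean log2FC in size. Same-numbered libraries were treated as unpaired, with correlations of -0.124 to 0.27 over 13 pairs. Motifs and shared words come from RefSeq (GRCm38.p6) promoters and Gencode M21 transcripts, and the annotation of the counts is newer.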

Additional observations from a re-analysis of the deposited data

How the results depend on the processing

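Each female call but that of Hspb1 was lost when at least 1 of the 2 female sham libraries was left out. Among the alternatives, a share of all genes is given only for the fit without male axotomy 2. The other counts that follow have no background. With each library left out, the count of members called was 2 to 20 in females (16 with all libraries), 16 to 39 in males (36), 0 to 11 for the difference of the responses (0), 0 to 0 between the sexes in sham (0) and 0 to 18 after axotomy (0). At padj under 0.05 there were 9 in females. DESeq2 called 2 members for the difference of the responses and 5 between the sexes after axotomy, where no filter gave 4, no length offset 1 and the replicate block 3. The replicate block gave 15 in females and 33 in males, and took the call from Hspa1l in females (padj = 0.117) and from Hsp90ab1 (padj = 0.117), Dnajc19 (padj = 0.114) and Dnajc14 (padj = 0.124), the last named after its values were seen, in males. The libraries share only a number, so this is not read as a weaker response. No named member's log2FC changed sign where it was called.

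Class sums depended on the scale. The log2 ratio of the deposited TPM sums, females then males, was 0.69 and 0.45 for small HSPs, -0.06 and -0.07 for HSP70, -0.06 and -0.12 for HSP90, 0.00 and 0.16 for HSP60 and HSP10, -0.04 and 0.04 for DNAJA, -0.01 and -0.03 for DNAJB and -0.08 and -0.16 for DNAJC. Rescaled by TMM, an alternative added after seeing the data, it was 0.82 for small HSPs in females, 0.05 and 0.12 for HSP70, 0.06 and 0.08 for HSP90, 0.12 and 0.35 for HSP60 and HSP10, 0.08 and 0.23 for DNAJA, 0.11 and 0.17 for DNAJB and 0.04 and 0.03 for DNAJC. In CPM it was 0.06 and 0.09 for HSP90, 0.08 and 0.22 for DNAJA and 0.05 and 0.09 for DNAJB. The other values moved by less than the SD between libraries. Over all libraries, 3 counts correspond to 0.0333 to 0.0543 CPM, and 9 members had a mean under 1 scaled TPM.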
